A study of Mus musculus with 6 samples.

Results

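A set of 8 genes of the epidermal attachment zone was followed in mouse skin tumors and healthy skin: the laminin chains Lama3, Lamb3, Lama5, Lamb1 and Lamc1, the plakins Dst and Plec, and the tetraspanin Cd151. The members were the non-control probes of the raw arrays that carried 1 of these names, which found all 8 genes among 36161 gene names, on 12 of 55681 probes, with 2 probes each for Lama3, Dst, Plec and Cd151 and 1 probe each for the other 4 genes. RNA of 3 healthy skin biopsies and of 3 tumors was hybridised to 1-colour arrays, 1 array per biopsy. The animals were female FVB/N mice, an inbred strain often used for skin painting. The tumors, labelled as cutaneous squamous cell carcinoma, followed skin painting with the mutagen DMBA and then with the phorbol ester PMA (also called TPA), 2 times a week for 6 weeks, another DMBA dose in week 8 and 14 more weeks of PMA. The healthy skin had received acetone, the usual solvent. Biopsies were taken at various times of the protocol, and the time of each is not given. No allele or transgene is named for either group. Because painted skin free of tumors is not in the comparison, tumor and treatment cannot be told apart. Nothing in the labels ties a biopsy to its own mouse, so the p-values rest on the spread among these 6 samples, which may be technical in part.

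Basal keratinocytes rest on a basement membrane whose main adhesive proteins are laminins, each a trimer of an alpha, a beta and a gamma chain. Laminin-332 holds the alpha and beta chains made from Lama3 and Lamb3 and is the ligand of the hemidesmosome, while laminin-511 joins those of Lama5, Lamb1 and Lamc1 and also occurs around vessels, nerves and hair follicles. In the hemidesmosome, integrin alpha6 beta4, collagen XVII and the tetraspanin CD151 sit in the membrane, and the plakins BP230 (an epidermal product of Dst) and plectin (Plec) tie them to the keratin filaments inside the cell. Dst and Plec also make long products in muscle and nerve.

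The transcript stretches read by the array matter for the plakins and for Cd151, and those shown here are the ones on which probes of 1 gene are compared below. All are given 5′ to 3′ as deposited, with the array's mm9 positions. The first Dst probe spans an intron (chr1:34209337-34211389, plus strand, 60 bases over 2053 genomic bases), and a further probe at chr1:34239785-34239844 is described by the array as dystonin but carries a transcript identifier in place of the gene name, so it is no member and is set beside Dst only for comparison. The Cd151 stretch is the start of the first Cd151 probe (chr7:148656555-148656614), read from the probe's first base to the first stop codon in that frame, shown in capitals. The last is the stretch of 20 bases that the second Plec probe shares with the probe of the neighbouring gene Parp10 (chr15:76063433-76063452, minus strand).
Dst, first probe: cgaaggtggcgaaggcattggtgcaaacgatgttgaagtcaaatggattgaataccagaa
Dst locus, unnamed probe: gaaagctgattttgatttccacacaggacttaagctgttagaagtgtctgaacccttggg
Cd151, first probe to the stop codon: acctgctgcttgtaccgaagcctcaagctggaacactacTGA
Plec, second probe, shared with Parp10: ataaacctgtacttgaaacc

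Each value below is a log2 signal, the background-subtracted signal of a probe minus the 75th percentile of all non-control spots on that array, and differences are tumor minus healthy skin. Between 48.7% and 65.4% of the 59305 non-control spots were well above background on each array. Tumor 1 had the lowest share and a median background of 85 intensity units against 23 to 26 on the others, and healthy skin 3 was the dimmest array. Healthy skin 1 and 2 lay in slide row 1 and the other 4 arrays in row 2, so the contrast within a row rests on healthy skin 3 alone. The values given for it below take that lone array to vary like the others, and carry no spread of healthy skin within the row. The labelled tissue was checked against keratinocyte markers, all 8 of which were well above background on every array. Their mean log2 signal was 5.97 to 6.31 in healthy skin and 5.5 to 6.34 in tumors. These means pool genes that went both ways: in the test below, 2 of the 8 were higher and 2 lower in tumors. In a biopsy, fewer cells of a type and less RNA per cell cannot be told apart.

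Among the 8 members, Lama3 and Lamb1 were higher and Dst was lower in tumors (limma, Benjamini-Hochberg adjusted p under 0.05), and 5 did not pass the test. The background of the same call among 24757 features was 10.3% higher and 15.6% lower, 25.9% in all, so 3 of 8 members is not a result about the set. The groups did not overlap in 4 of 8 members, against 49.7% of all features. In Lama3 and Lamb1 every tumor lay above every healthy skin array (20.7% of all features), and in Dst and Plec below (29.0%). The median log2 fold change was 0.18 for the members and -0.16 for all features. All 12 member probes were well above background on every array, apart from the second Plec probe, which was so on 2 of 3 tumor arrays.

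**Figure D1:**
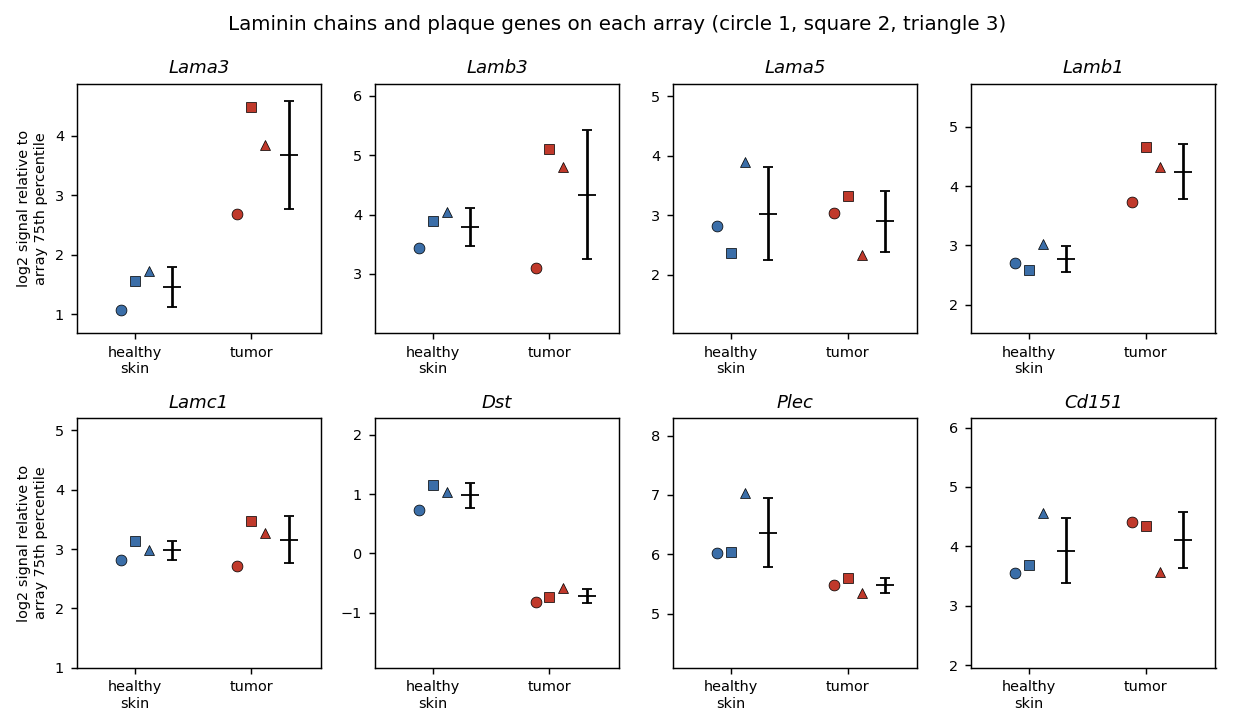
Log2 signal of each member (vertical axis, relative to the array's 75th percentile; all panels have the same scale but their own centre) on the 3 healthy skin arrays (blue) and 3 tumor arrays (red); bars are mean ± SD. Lama3 and Lamb1 sit higher in all 3 tumors, Dst and Plec lower, and the other 4 genes overlap between the groups.

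Lama3, the alpha chain of laminin-332, rose in tumors. Its log2 signal was 1.07, 1.56 and 1.73 in healthy skin 1 to 3 and 2.69, 4.49 and 3.85 in tumors 1 to 3. All 3 tumors lay above all 3 healthy skin arrays, and tumor 2 was the highest and tumor 1 the lowest of the tumors. The means were 1.45 ± 0.34 (SD, n = 3) and 3.68 ± 0.92 (n = 3), a 4.66-fold rise (log2 fold change 2.22 ± 0.48 SE, 95% interval 1.10 to 3.34, limma adjusted p = 0.0158). The other Lama3 probe was 0.27, 0.70 and 0.64 in healthy skin and 1.79, 3.69 and 3.02 in tumors, and its log2 fold change was 2.30 ± 0.49 SE (limma adjusted p = 0.0145 with every probe tested by itself). Both probes lie on chromosome 18 (mm9 positions 12741067 to 12741126 and 12741458 to 12741517). The log2 fold change of Lama3 was 1.95 against healthy skin 3 alone, and that contrast did not pass (limma adjusted p = 0.0849 when slide row was a block and 0.135 within row 2).

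Lamb3, the beta chain of the same trimer, did not pass the test. Its log2 signal was 3.43, 3.89 and 4.05 in healthy skin and 3.1, 5.11 and 4.8 in tumors. Tumors 2 and 3 lay above every healthy skin array and tumor 1 below all of them, so the groups overlapped. The log2 fold change was 0.54 ± 0.54 SE (95% interval -0.71 to 1.8, limma adjusted p = 0.479), an interval that holds both a 3.48-fold rise and a fall. Without healthy skin 3 and tumor 1, the dimmest array and the one with the highest background, it was 1.29 with an adjusted p = 0.042, and without tumor 1 alone it was 1.16 (adjusted p = 0.0606).

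A difference between 2 probes on the same array does not change when 1 value per array is subtracted, as here. Quantile normalization can change such a difference. The absolute size of a difference also holds each probe's own brightness, so only its shift between groups is read. The difference Lama3 minus Lamb3 was -2.36, -2.33 and -2.32 in healthy skin and -0.41, -0.62 and -0.95 in tumors. It was nearly constant in healthy skin (SD 0.02) and shifted by 1.68 in tumors, or 3.20-fold, and by 1.55 to 1.83 when any 1 array was left out. The groups did not overlap, and the difference had an exact two-sided permutation p = 0.1, the smallest that 3 arrays against 3 allow (0.275 adjusted over 11 such differences, which were chosen after the values were seen).

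**Figure D2:**
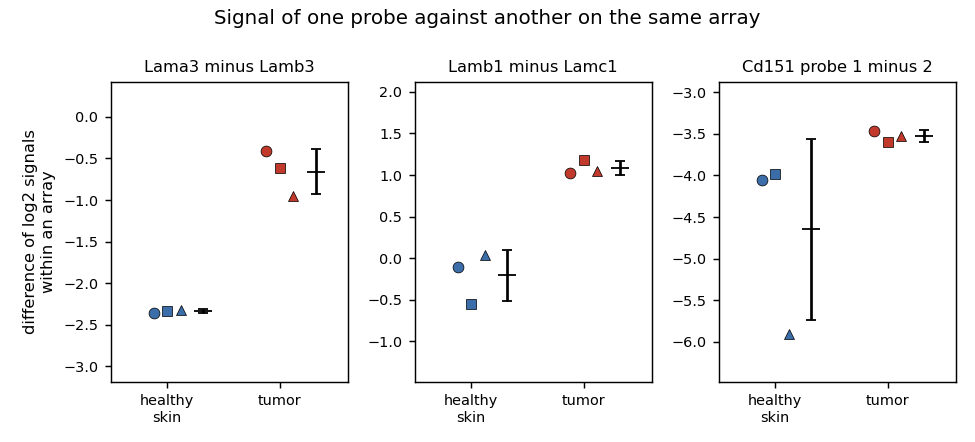
Difference of the log2 signals of 2 probes on the same array (vertical axis) for 3 healthy skin arrays (blue) and 3 tumors (red), with mean ± SD. Lama3 moves up against Lamb3, by 1.68, and Lamb1 against Lamc1, by 1.29; the Cd151 shift of 1.12 rests in part on healthy skin 3.

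Among the laminin-511 chains, Lamb1 rose and the tests of Lama5 and Lamc1 did not pass. Lamb1, the beta chain (chromosome 12, mm9 positions 32014411 to 32014470), had log2 signals of 2.71, 2.59 and 3.02 in healthy skin and 3.74, 4.66 and 4.32 in tumors. All tumors lay above all healthy skin arrays, again with tumor 2 highest and tumor 1 lowest. It rose 2.77-fold (means 2.77 ± 0.22 and 4.24 ± 0.47 SD, n = 3 each, log2 fold change 1.47 ± 0.33 SE, limma adjusted p = 0.0177). The call was lost without healthy skin 1 (adjusted p = 0.0545), healthy skin 2 (0.0631), tumor 2 (0.0643) or tumor 3 (0.0504), and against healthy skin 3 alone (log2 fold change 1.22, adjusted p = 0.0727 when slide row was a block and 0.137 within row 2).

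Lamc1, the gamma chain shared by most laminins (chromosome 1, mm9 positions 155066156 to 155066215), was 2.81, 3.14 and 2.98 in healthy skin and 2.72, 3.48 and 3.27 in tumors. The groups overlapped, and the log2 fold change was 0.18 ± 0.30 SE (95% interval -0.53 to 0.89, limma adjusted p = 0.684). Lama5, the alpha chain of laminin-511 (chromosome 2, mm9 positions 179911079 to 179911138), was 2.81, 2.37 and 3.90 in healthy skin and 3.04, 3.32 and 2.33 in tumors. Healthy skin 3 was the highest array and tumor 3 the lowest, and the log2 fold change was -0.13 ± 0.47 SE (95% interval -1.22 to 0.96, limma adjusted p = 0.852). As ratios of tumor to healthy skin, the intervals ran from 0.692 to 1.86 for Lamc1 and from 0.429 to 1.94 for Lama5. They leave room for changes in both directions. The difference Lamb1 minus Lamc1 was -0.11, -0.55 and 0.04 in healthy skin and 1.02, 1.18 and 1.05 in tumors, a shift of 1.29 without overlap. Lama5 minus Lamb1 shifted by -1.60, also without overlap (exact permutation p = 0.1 for each), while Lama5 minus Lamc1 overlapped (shift -0.31, exact permutation p = 0.7).

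In 4 of the 8 members, Lama3, Lamb3, Lamb1 and Lamc1, tumor 2 was the highest and tumor 1 the lowest tumor. Lama5, Dst, Plec and Cd151 had other orders, and 14.8% of all features had this one, which was singled out after the values were seen. Tumor 1 was the tumor array with the highest background, whose part in this order was not tested. The range among the tumors was wider than among healthy skin arrays in these 4 of the 8 members, against 45.3% of all features. The SD was 1.08 in tumors and 0.32 in healthy skin for Lamb3.

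Both probes named Dst, the gene of the plakin dystonin, fell in tumors. Which of its products they read, the epidermal BP230 or the long forms of muscle and nerve, was not tested. The array's description of neither probe names BP230. On the probe standing for the gene (chromosome 1, mm9 positions 34364644 to 34364703), its log2 signal was 0.74, 1.16 and 1.03 in healthy skin and -0.81, -0.74 and -0.58 in tumors. Every tumor lay below 0 and every healthy skin array above it, so the groups did not overlap. The means were 0.98 ± 0.22 and -0.71 ± 0.12 (SD, n = 3 each), a 3.22-fold fall (log2 fold change -1.69 ± 0.27 SE, limma adjusted p = 0.00508). Against the lone healthy skin 3 the log2 fold change was -1.74 (adjusted p = 0.0132 when slide row was a block and 0.0365 within row 2). With the arrays scaled to the spike-in RNA it was -0.80 and did not pass (adjusted p = 0.464).

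The first Dst probe, the intron-spanning sequence printed above, gave 0.14, 0.17 and 0.27 in healthy skin and -1.98, -1.56 and -1.52 in tumors. Its log2 fold change was -1.88 ± 0.27 SE (limma adjusted p = 0.00385 with every probe tested by itself), and the difference between the 2 Dst probes overlapped between the groups (shift -0.19, exact permutation p = 0.3). The array's descriptions assign these probes to transcript variants a and b. The unnamed probe of the locus was 4.27, 4.63 and 3.73 in healthy skin and 2.57, 3.82 and 2.73 in tumors. Tumor 2 lay above healthy skin 3 there, and the log2 fold change of -1.17 ± 0.43 SE did not pass (limma adjusted p = 0.0796).

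Plec, the plakin that binds integrin beta4, did not pass the test although all 3 tumors lay below all 3 healthy skin arrays. Its log2 signal (chromosome 15, mm9 positions 76001454 to 76001513) was 6.03, 6.04 and 7.03 in healthy skin and 5.49, 5.6 and 5.35 in tumors. Healthy skin 3 stood above the other healthy skin arrays. The log2 fold change was -0.89 ± 0.35 SE (95% interval -1.70 to -0.07, limma adjusted p = 0.0999), and -0.56 without healthy skin 3 (adjusted p = 0.119). Against healthy skin 3 alone, the highest of the 6 arrays for this probe, it was -1.55 (adjusted p = 0.0132 when slide row was a block and 0.045 within row 2), so that value rests on this array. The test passed under quantile normalization (-1.02, adjusted p = 0.047), normexp correction (-0.89, 0.0338) and in the table the authors deposited (-0.87, 0.0406), while spike-in scaling gave a log2 fold change of 0.

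The second Plec probe is described as plectin isoform plec 0a,1c and lies at the other end of the locus (chr15:76063393-76063452, mm9). It was -3.45, -3.48 and -3.32 in healthy skin and -4.44, -4.13 and -4.04 in tumors (log2 fold change -0.79 ± 0.27 SE, limma adjusted p = 0.0661 with every probe tested by itself). This probe shares the 20 bases printed above with the Parp10 probe, whose log2 fold change was -0.80 (adjusted p = 0.124), so signal from Parp10 transcripts cannot be told apart on it.

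Cd151, the tetraspanin partner of laminin-binding integrins, gave different answers on its 2 probes. The brighter probe, which stands for the gene (chr7:148657237-148657297, mm9), was 3.55, 3.68 and 4.56 in healthy skin and 4.41, 4.34 and 3.56 in tumors. The groups overlapped fully, with a log2 fold change of 0.17 ± 0.39 SE (95% interval -0.74 to 1.09, limma adjusted p = 0.766). The other probe, the start of which is printed above, was -0.51, -0.30 and -1.34 in healthy skin and 0.95, 0.74 and 0.04 in tumors. All tumors lay above all healthy skin arrays on it, and with every probe tested by itself its log2 fold change was 1.29 ± 0.40 SE (limma adjusted p = 0.0484). The call was kept in 9 of 19 alternatives, and the log2 fold change ran from 0.79 to 2.18 over all 19. The difference between the probes was -4.06, -3.98 and -5.90 in healthy skin and -3.46, -3.60 and -3.52 in tumors, a shift of 1.12 that was 0.49 without healthy skin 3.

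**Figure D3:**
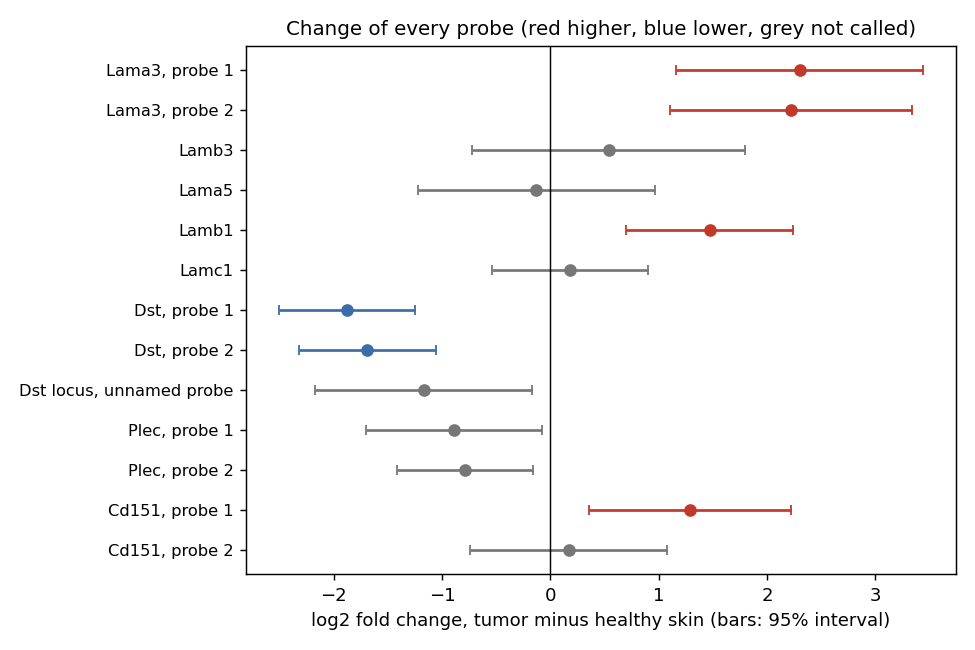
Log2 fold change of each probe, tumor minus healthy skin (horizontal axis), with 95% intervals; red and blue points passed the test over all probes, grey ones did not. Both Lama3 probes lie near 2 and both Dst probes below -1.5, whereas the Cd151 probes lie at 1.29 and 0.17.

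Markers of other cell types in the biopsies also differed between the groups. All 9 skeletal muscle markers were lower in tumors, with a mean log2 signal of 4.58 to 6.11 in healthy skin and 0.42 to 1.56 in tumors. Of 8 Schwann cell markers 6 were lower (0.55 to 1.29 against -1.36 to -1.10), and of 7 measured adipocyte markers 5 were lower (1.93 to 4.06 against -1.18 to 0.95). Dst was lower in tumors too, and the part of these cell types in its fall was not tested. Beside the rise of Lama3 and Lamb1, 6 of 8 neutrophil markers were higher (-2.14 to -0.95 in healthy skin against 2.59 to 3.63 in tumors). Keratinocyte markers were higher in 2 and lower in 2 of 8, fibroblast markers higher in 1 and lower in 2 of 8 (3.56 to 4 against 3.09 to 4.32), endothelial markers higher in 1 and lower in 1 of 8 (0.01 to 0.39 against -0.41 to 0.40), smooth muscle and pericyte markers higher in 1 and lower in 2 of 8 (2.28 to 2.58 against 1.25 to 2.30), macrophage markers higher in 2 of 8 (-0.05 to 1.61 against 1.25 to 2.66), and hair follicle markers lower in 3 of 8 (-0.63 to 3.31 against -3.16 to 0.90). Their part in the laminin values was not tested either.

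The other genes of the attachment zone were taken from 7 lists. Of 62 measured genes, 15 were higher and 14 lower in tumors, and their log2 fold changes had a median of -0.03. Among all features, the same call was made for 10.3% as higher and 15.6% as lower. The members and the lists were chosen with earlier results of these data known, so their counts are descriptions.

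**Figure D4:**
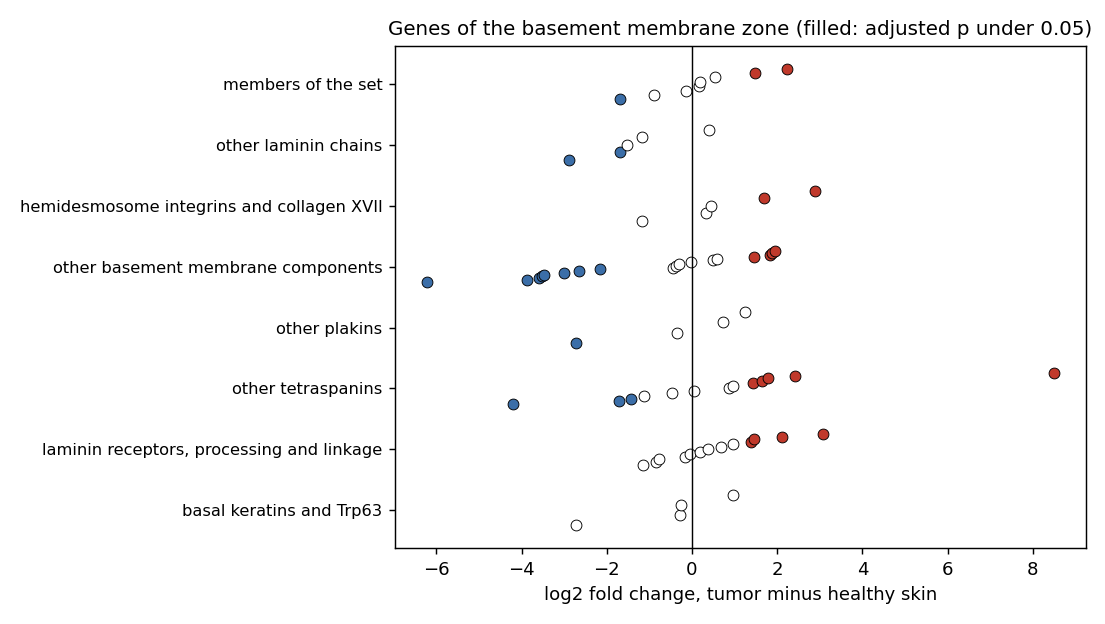
Log2 fold change, tumor minus healthy skin (horizontal axis), of each member and of each measured gene of 7 further lists (rows); filled points passed the test (adjusted p under 0.05), open points did not. The basement membrane components split into 4 higher and 8 lower genes.

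Among 5 other laminin chains, 2 fell and none rose. Lamc3, a gamma chain of other laminins, fell by 2.88 on the log2 scale (limma adjusted p = 0.00545), and Lama2, the alpha chain of muscle and nerve laminin, fell by 1.69 (adjusted p = 0.0467). In a list of 5 genes of laminin-binding integrins and collagen XVII, Itga3 and Itgb1 rose and none fell. Itga3 and Itgb1 encode the chains of the laminin-332 receptor integrin alpha3 beta1, and their log2 fold changes were 2.89 ± 0.66 SE and 1.70 ± 0.33 SE (limma adjusted p = 0.0193 and 0.0105). The hemidesmosome's own membrane proteins did not pass the test: the log2 fold change was 0.34 for Itga6, 0.45 for Itgb4 and -1.17 for Col17a1, with adjusted p = 0.623, 0.571 and 0.107. The groups overlapped in all 3.

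Of 18 measured basement membrane components, 4 rose and 8 fell. The collagen IV chains went in both directions. Col4a1 and Col4a2, which form the most widespread collagen IV network, rose 3.86-fold and 3.55-fold (limma adjusted p = 0.0123 and 0.013), while chains of the more restricted networks fell: Col4a4 by 2.15, Col4a5 by 3.51 and Col4a6 (limma adjusted p = 0.00101). In tumors, Col4a4 and Col4a5 cleared the background on 2 of 3 arrays, so their sizes are less certain, and Col4a6 on 1, so its size is not given. Col18a1 and Nid2, encoding collagen XVIII and nidogen-2, also rose (log2 fold changes 1.88 and 1.46). Fras1, which helps to hold epidermis to dermis in development, also fell (limma adjusted p = 0.0308), but it cleared the background on 1 of 3 tumor arrays, so the size of its fall is not given. Npnt, the integrin ligand nephronectin, was not well above background on any tumor array and was at least 6.30-fold lower (limma adjusted p = 0.0029).

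Of 4 other plakins, 1 fell and none rose. Eppk1, encoding epiplakin, fell by 2.73 on the log2 scale (limma adjusted p = 0.00228), and Ppl, the cornified envelope protein periplakin, had a log2 fold change of 1.24 that did not pass (adjusted p = 0.0887). Of 13 other tetraspanins, 5 rose and 3 fell. The rises included Tspan1 (log2 fold change 8.5, detected in 2 of 3 healthy skins), the leukocyte gene Cd53 (2.42) and Tspan3 (1.78), and the falls were those of Tspan8 (-4.21), Cd82 (-1.71) and Tspan7 (-1.42). Among 13 genes of laminin receptors, processing and linkage, 4 rose and none fell. Parva, an actin-linked partner of integrin-linked kinase, rose 8.46-fold (limma adjusted p = 0.00107), Sdc1, the cell-surface proteoglycan syndecan-1, rose 4.31-fold (adjusted p = 0.00892), Mmp14, a membrane-bound metalloproteinase, rose 2.76-fold (adjusted p = 0.019), and Vcl, encoding vinculin, rose 2.60-fold (adjusted p = 0.0126).

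None of the 4 genes in the list of basal keratins and Trp63 passed the test (limma, 0 at an adjusted p under 0.05). Krt14, a keratin of the filaments anchored at the hemidesmosome, had a log2 fold change of 0.97 ± 0.33 SE (adjusted p = 0.0659). Krt15, the basal and stem cell keratin, was 7.60, 7.82 and 8.01 in healthy skin and 7.65, 5.14 and 2.48 in tumors, and its log2 fold change of -2.72 did not pass (adjusted p = 0.113). Krt5, the partner of Krt14, and Trp63, the basal epidermal transcription factor, had log2 fold changes of -0.25 and -0.27.

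RefSeq promoter sequences were used for 5 of the 8 members (GRCm38.p6, 8 start sites). Lama3, Lamc1 and Plec are not among them, so the motif counts below do not cover these genes. The 250 bases before the start are shown for Lamb1, which rose, and for the 2 starts of Dst, which fell. Letters in capitals match GGGCGG on either strand; the windows were also searched on both strands for the AP-1 motif TGANTCA and the TATA motif TATAAA. These 3 motifs were chosen after the promoter sequences had been seen. Lamb1 is at chr12:31265043-31265292, the first Dst start at chr1:34011345-34011594 and the second at chr1:34160010-34160259, all on the plus strand.
Lamb1: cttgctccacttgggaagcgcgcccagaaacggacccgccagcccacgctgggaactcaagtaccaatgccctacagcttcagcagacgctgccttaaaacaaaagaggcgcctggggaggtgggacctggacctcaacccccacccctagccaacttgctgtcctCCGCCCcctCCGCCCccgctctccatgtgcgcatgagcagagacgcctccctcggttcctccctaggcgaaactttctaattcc
Dst, first start: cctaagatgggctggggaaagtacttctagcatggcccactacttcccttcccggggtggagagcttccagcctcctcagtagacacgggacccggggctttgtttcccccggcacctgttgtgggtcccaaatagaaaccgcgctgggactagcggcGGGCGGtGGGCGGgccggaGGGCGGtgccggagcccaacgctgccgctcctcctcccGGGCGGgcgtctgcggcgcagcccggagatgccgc
Dst, second start: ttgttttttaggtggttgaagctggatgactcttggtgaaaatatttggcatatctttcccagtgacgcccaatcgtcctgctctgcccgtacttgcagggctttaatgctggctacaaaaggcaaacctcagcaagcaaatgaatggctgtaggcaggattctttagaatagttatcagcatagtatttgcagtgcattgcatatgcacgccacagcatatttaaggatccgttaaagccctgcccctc

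The Lamb1 window held 2 matches to GGGCGG, the first Dst start 4 and the second Dst start 0. Among the genes that did not pass the test, Lama5 held 4, Cd151 held 2 at its first start and 0 at its second, and Lamb3 held 0 at both starts. Among all 32851 promoter windows of this length, 32.7% held such a match. The G and C content was 68.8% at the first Dst start and 45.2% at the second, against a median of 52.4% over all windows. Neither TGANTCA nor TATAAA matched in any of the 8 member windows, while 6.75% and 12.4% of all windows held them.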

How the data were processed

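RNA was measured on 6 1-colour Agilent arrays, 3 per group. Per the file headers, the intensity columns were written by Feature Extraction 10.7.3.1 with probe positions in mm9. The authors' deposited table holds log2 values (column medians 6.33 to 6.35), and the submitters' processing notes name limma. Its background handling was not given in the sources used here.

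Each processed signal was put on a log2 scale and set against the array's 75th percentile. Of 55681 probes, 180 with outlier spots were left out, and 34284 that cleared the background on at least 3 arrays stayed. A gene was read from its brightest probe, giving 24757 features, 16469 of them with a RefSeq symbol. The test was limma 3.58.1 (R 4.3.3), tumor against healthy skin with no block, two-sided, adjusted by Benjamini-Hochberg over all features. Results of 1 gene are not reported here. The code was tested on simulated data. Members and lists were chosen with earlier results of these data known. Per list, up to 3 of the largest called rises and falls were named, or the 2 smallest p; Col4a4, Col4a5, Nid2, Vcl, Krt5, Trp63 and the uncalled integrins were named after their values were seen. Other scalings, background corrections, filters, probe rules, blocks and left-out arrays were tried. Probe-wise alternatives and within-array differences were added after seeing the data.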

Additional observations from a re-analysis of the deposited data

How the results depend on the processing

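Among 6420 called features 39.8% were higher in tumors, against 62.9% under median scaling and 70.8% of 2678 under spike-in scaling, and the median over all features moved from -0.16 to 0.21 and 0.73 on the log2 scale. The count was 3920 with no detection filter and 9858 with array weights. Without single arrays it ran from 3840 (tumor 2 left out; 4056 without healthy skin 2) to 5458, with 2 to 3 members and 20 to 27 zone genes called; 16 zone genes were called within slide row 2 and 19 under spike-in scaling, against 29. Over 21 alternatives Dst was called in 20, Lama3 in 19 and Lamb1 in 15. Median scaling and spike-in scaling each shift the log2 fold change of every feature by the same amount. Under spike-in scaling the members were -0.80 for Dst, 0 for Plec, 0.76 for Lama5 and 1.06 for Cd151. Lamc1 was 1.07, Lamb3 1.43, Lamb1 2.36 and Lama3 3.11. With slide row as a block, and equally within row 2, values were 1.95 for Lama3, 1.22 for Lamb1, -1.55 for Plec, -1 for Lama5 and -0.46 for Cd151. Plec was -1.02 and Cd151 -0.03 under quantile normalization; under normexp and in the authors' table Plec was -0.89 and -0.87 and Lamc1 -0.08 in each. Lama5 was 0.24 under median scaling, 0.4 with array weights and 0.23 without healthy skin 3 and tumor 1, where Lamb3 was 1.29. Leaving out single arrays gave 1.81 to 2.72 for Lama3, 0.15 to 1.16 for Lamb3, -0.46 to 0.3 for Lama5, 1.26 to 1.72 for Lamb1, 0.02 to 0.4 for Lamc1, -1.81 to -1.6 for Dst, -1.05 to -0.56 for Plec and -0.02 to 0.49 for Cd151. Apart from the shared shift under median and spike-in scaling, the cause of these changes was not tested. The deviations of same-numbered arrays had correlations of 0.103, 0.129 and -0.083. So few arrays cannot decide whether the replicate numbers pair the biopsies. With the replicate number as a block, 5470 features were called. Lama3, Lamb1 and Dst were called again in that fit (limma adjusted p = 0.0118, 0.036 and 0.0168). Tumor 1 had the fewest spots above background, which limits its dim probes most.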

Other observations

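Over the 6 arrays, genes among those whose values ran closest to Lama3 were Klhl20 (Pearson r 0.9931), Map4k4 (0.9925) and Pcdhb17 (0.991). Those closest to Lamc1 were Usp33 (0.9846), H2bc22 (0.9786), Fam149a (0.9743) and Nt5e (0.9667). These values describe 6 arrays that share their scaling and the same 2 groups.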
